A study of Mus musculus with 2 samples.

Results

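The clustered protocadherins are cell surface adhesion proteins of neurons, encoded in 3 neighbouring gene clusters, Pcdha, Pcdhb and Pcdhg, on mouse chromosome 18. Their genes were examined here in EGR1 ChIP-seq data, in which an antibody against the transcription factor EGR1 pulls down the DNA it is bound to for sequencing. Members were the protein-coding genes of GENCODE release M21 whose symbol starts with Pcdha, Pcdhb or Pcdhg. The rule gave 57 of 21853 protein-coding genes, namely 14 Pcdha, 22 Pcdhb and 21 Pcdhg genes. EGR1 peaks were taken from 50 kb before the first to 50 kb after the last of these genes, which is chr18:36880184-37891873 on mm10 and 1.01 Mb long. Of the 12014 EGR1 peaks of the series, 6 had their centre in this region.

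The tissue was frontal cortex of male 129SvEv/C57BL/6N F1 hybrid mice at 6 weeks, with the cortices of several mice pooled for each ChIP, so all of its cell types are mixed. No knockout or treated group was part of the series, and the input DNA was not analysed here. Both biological replicates had been merged into 1 peak list, which gives the position of each peak and its irreproducible discovery rate (IDR), a reproducibility measure that takes low values for peaks of similar high rank in the replicates. Without read counts in the list, the depth behind a peak is unknown. Nor does it keep the replicates apart, so no difference could be set against their spread. What follows is therefore a description without tests, and the 95% Wilson intervals cover counting error over genes or peaks alone. A peak list cannot show whether the dissected tissue carried the markers of frontal cortex.

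In the Pcdha and Pcdhg clusters, each variable exon has its own promoter and is spliced to constant exons that all genes of the cluster share. The Pcdhb genes are single-exon genes without constant exons. Neurons are known to choose among most of these promoters at random, with the help of CTCF and cohesin, which loop distant enhancers to them. The C-type genes, Pcdhac1, Pcdhac2, Pcdhgc3, Pcdhgc4 and Pcdhgc5, lie at the end of the Pcdha and Pcdhg variable arrays and are used more regularly in many neurons. EGR1 is a zinc finger protein whose gene is induced by neuronal activity, and it binds GC-rich DNA with the sequence GCGTGGGCG or GCGGGGGCG.

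Peaks stood at the start sites of 3 C-type genes and of no other member. Among the 5 C-type genes, 3 had a peak centre within 2 kb of a start site, namely Pcdhac1, Pcdhac2 and Pcdhgc5. Among the other 52 members, 0 had one, which allows a share of up to 6.88% (upper Wilson limit). Over all members the count was 3 of 57, or 5.26% (Wilson interval 1.81 to 14.4%), while 28.6% of all protein-coding genes had a peak within the same distance. The Wilson interval of the 5 C-type genes, 23.1 to 88.2%, holds that 28.6%, so their share could not be told apart from it. By cluster, the counts were 2 of 14 Pcdha, 0 of 22 Pcdhb (up to 14.9%) and 1 of 21 Pcdhg genes. The division into C-type and other genes was made after the positions of the peaks were seen, and the members are neighbours with related sequences, not replicates. Within 500 bp the count was also 3, beside 24.9% of all protein-coding genes, and within 1 kb it was 3 beside 27.3%. Within 5 kb it was 4, with Pcdhgc4 added, beside 31.4%.

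**Figure D1:**
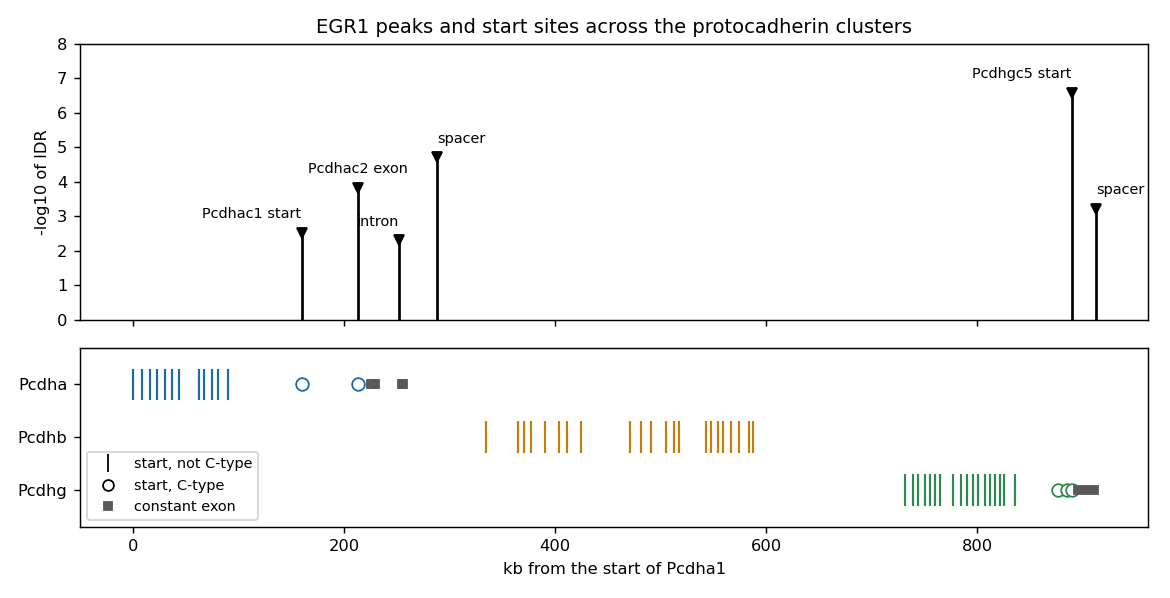
Map of the region, with the distance in kb from the start of Pcdha1 on the x axis. The upper panel plots the -log10 of the IDR of the 6 EGR1 peaks, and the lower panel the start sites of the 57 genes (lines, or circles for C-type genes) and the constant exons (squares); 5 peaks fall around the C-type and constant exons at the ends of the Pcdha and Pcdhg clusters, 1 falls in the spacer between the Pcdha and Pcdhb clusters, and 0 fall among the Pcdhb start sites.

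The peak of Pcdhac1, the first C-type gene, lay at chr18:37089895-37090144 and its centre was 6 bp after the start site. Its IDR was 0.00299, and 71.6% of all peaks had a lower one. The 250 bp of this peak had a GC content of 66% and 19 CpG sites, with a CpG ratio (observed over expected from the base content) of 0.698. They held 0 exact copies of the EGR1 motif and 1 copy with 1 mismatch, 25 bp from the centre. In windows of the same width 5 kb to either side, the GC content was 26.8% and 28.4% and the CpG ratio was 0.

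Pcdhac2 carried its peak inside the variable exon, at chr18:37143688-37143937, with the centre 309 bp after the start site. With an IDR of 0.000146, it stood in the middle of the list, since 44.6% of all peaks had a lower one. It was the GC-richest of the 6 peaks, with 71.2% G and C, 26 CpG sites and a CpG ratio of 0.879. Of the 6 peaks, it was the 1 with an exact motif, GCGGGGGCG at chr18:37143787-37143795 on the plus strand. In the windows 5 kb to either side the CpG ratio was 0.116 and 0. The motif copy lay 21 bp from the peak centre, and 288 bp after the start site, before the first coding base.

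The peak of Pcdhgc5, the last C-type gene, had the lowest IDR of the region, 2.61e-07, and 13.2% of all peaks had a lower one. It was 117 bp wide, at chr18:37819429-37819545, and its centre lay 26 bp before the start site, in the promoter. Its composition differed from that of the Pcdhac1 and Pcdhac2 peaks, with a GC content of 59.0%, 2 CpG sites and a CpG ratio of 0.239. In 250 bp around its centre, the width of the other peaks, the CpG ratio was 0.116. In windows of the peak's own width 5 kb to either side it was 0.195 and 0.280, so the ratio over 117 bp lay between those of its flanks. The GC content of these windows was 42.7% and 51.3%, below that of the peak. The peak held 0 exact motifs and 1 copy with 1 mismatch, 19 bp from the centre.

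The other C-type genes, Pcdhgc3 and Pcdhgc4, had no peak within 2 kb. Their nearest peak was that of Pcdhgc5, at 13.1 kb from the start of Pcdhgc3 and 4.09 kb from that of Pcdhgc4. The next members in the order of distance were Pcdhb1, the first Pcdhb gene, at 46.5 kb and Pcdhga12, the last Pcdhg gene before the C-type genes, at 53.9 kb. Over the 52 members that are not C-type, the distance ran from 46.5 to 299.5 kb, with a median of 127.3 kb. The largest was that of Pcdhb22, the last Pcdhb gene. The medians of the Pcdha, Pcdhb and Pcdhg genes, with C-type genes included, were 106.9, 210.1 and 93.8 kb.

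**Figure D2:**
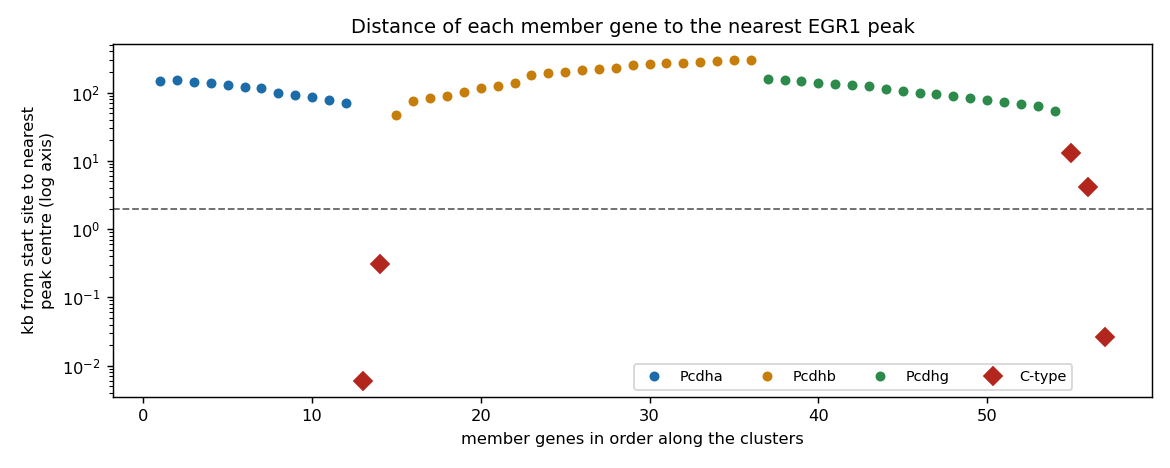
Distance in kb (log axis) from the start site of each of the 57 genes, in their order along the clusters, to the nearest EGR1 peak centre. Diamonds mark C-type genes and the dashed line is at 2 kb; the 3 points below the line are Pcdhac1, Pcdhac2 and Pcdhgc5, and all points that are not C-type lie above 46 kb.

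The remaining 3 peaks of the region lay away from the variable exons. One stood in the intron before the last Pcdha constant exon, at chr18:37182257-37182506, 2565 bp from that exon and 38878 bp after the start of Pcdhac2. It had the highest IDR of the region, 0.00493, and the lowest GC content, 44.8%, with 3 CpG sites. Its CpG ratio was 0.293, beside 0.282 and 0.444 in the windows 5 kb to either side. Another peak lay at chr18:37218286-37218535 in the 77.3 kb between the Pcdha and Pcdhb clusters, 30.7 kb after the end of the Pcdha genes and 46.5 kb before Pcdhb1. Its IDR of 1.96e-05 was the second lowest of the region. With a GC content of 49.6% it still had 12 CpG sites and a CpG ratio of 0.806, while the ratio was 0 and 0.0859 in the windows 5 kb to either side. The last peak, at chr18:37842705-37842954 with an IDR of 0.000608, had its centre 956 bp after the end of the last Pcdhg constant exon, which is also the end of the cluster. From the peak's nearer edge it was 647 bp to the 3′ end of Diaph1, a gene on the opposite strand that encodes an actin-nucleating formin. Its CpG ratio was 0.384, beside 0.203 and 0.272 in the windows 5 kb to either side. Enhancers of the clusters are known, but their positions were not in the files used here, so none of these peaks was compared with them.

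Assigned by the peak centre, 1 peak was in a variable promoter (the 2 kb before a start site), 2 were in variable exons, 1 was in an intron and 2 were in spacers outside all member genes. For constant exons the count was 0 of 6. Since the centres of the Pcdhac1 and Pcdhac2 peaks lay just after the start sites, the count at variable promoters was 3 when 500 bp on either side of the start were allowed.

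For its length the region did not have fewer peaks than the genome at large, but it had many start sites. It held 5.93 peaks per Mb, with 3.94 on chromosome 18 and 4.38 on all assembled chromosomes, and 56.3 member genes per Mb, with 8.02 protein-coding genes per Mb of all assembled chromosomes. Its peaks left a pair of long gaps. Between the peak in front of the Pcdhb cluster and that of Pcdhgc5, 601.1 kb passed without a peak, and 42 member starts lay in between, those of all 22 Pcdhb genes and of all Pcdhg genes but Pcdhgc5. Of the 11918 gaps between neighbouring peaks, 7.93% were at least as long (median 63.2 kb), and 19 held at least its 44 protein-coding start sites. A gap of 306.3 kb ended at the Pcdhac1 peak and held the starts of the 12 Pcdha genes that are not C-type and of Pcdhac1 itself, 6 bp from its end.

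Variable promoters were poorer in G and C than most promoters, and C-type promoters, of which 2 lay above the median of all genes, were less so. From 250 bp before to 50 bp after the start site, the GC content was 30.7 to 49.0% in the 52 members that are not C-type, with a median of 39.5%. In C-type genes it was 60.7% for Pcdhac1, 52.3% for Pcdhac2, 63.0% for Pcdhgc3, 47.3% for Pcdhgc4 and 54.7% for Pcdhgc5. All protein-coding promoters had a median of 55.3%, with 62.3% for those with a peak within 2 kb and 52.0% for those without. A GC content of 50% or more was found in 4 members, Pcdhac1, Pcdhac2, Pcdhgc3 and Pcdhgc5, and 3 of them had a peak, while 38.3% of all such genes did. Of all genes with a promoter below 50%, 8.53% had a peak, while 0 of the other 53 members did.

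**Figure D3:**
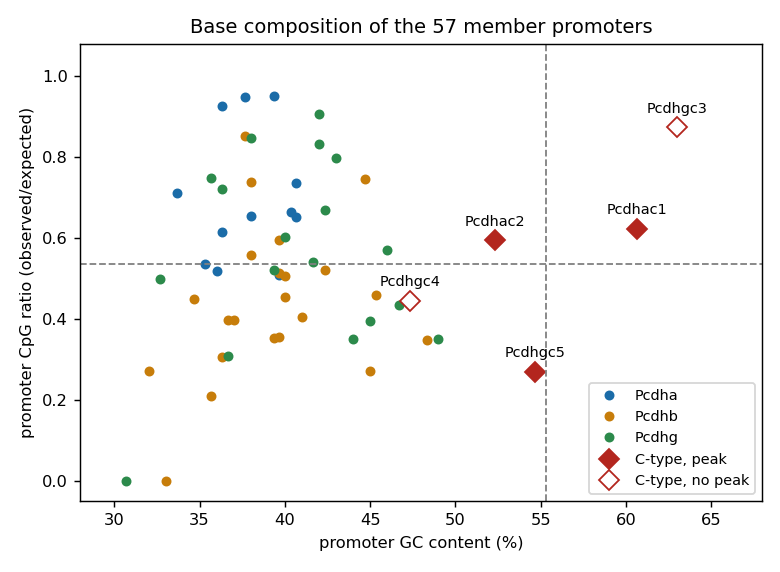
GC content (x axis, %) and CpG ratio (y axis) from 250 bp before to 50 bp after the start site of the 57 genes. Diamonds mark C-type genes, filled where a peak lay within 2 kb, and dashed lines the medians of all protein-coding promoters, 55.3% and 0.537; all 52 other promoters have a GC content of at most 49.0%, whereas their CpG ratios spread from 0 to 0.950.

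The CpG ratio did not separate the groups in this way. Its median was 0.595 in C-type and 0.521 in other promoters, beside 0.537 in all promoters, and Pcdha promoters that are not C-type reached 0.508 to 0.950. Pcdhgc3 had the highest ratio of the C-type genes, 0.875, and no peak, and Pcdhgc5 had the lowest, 0.270, with a peak. Nearly all variable promoters held the letters CGCT, the core of a sequence element that most variable promoters are known to share. These letters were in 55 of 57 members on either strand, and in 67.5% of all protein-coding promoters, so they alone do not identify the element. The exact EGR1 motif was in 0 of the 57 promoters (beside 4.45% of all promoters). A copy with up to 1 mismatch was in 2 of them, those of Pcdhac1 and Pcdhgc5, while 33.2% of all promoters held one.

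Exact EGR1 motifs were frequent elsewhere in the region, and all but 1 were outside peaks. On both strands, GCGTGGGCG or GCGGGGGCG occurred 11 times, or 10.9 times per Mb, while the assembled chromosomes held 2.77 copies per Mb. Of all 7559 copies, 28.4% lay in a peak, and in the region this was 1 of 11, the copy at Pcdhac2. Another copy lay in the spacer between Pcdha and Pcdhb at chr18:37216794-37216802, 1.61 kb from a peak centre. The remaining 9 copies were all in variable exons without a peak and all on the minus strand, opposite to the genes. These copies lie in exons of related sequence, so they are not independent counts for the density or for the share in peaks.

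Their place within the exons was alike inside each cluster. In Pcdha6, Pcdha9, Pcdha11 (ENSMUSG00000102206.5) and Pcdha12 the form was GCGTGGGCG, at 1769 to 1813 bp after the start site. Counted from the first coding base, the distance was 1688 bp in Pcdha6 and Pcdha12, 1685 bp in Pcdha11 and 1778 bp in Pcdha9. In Pcdhb2, Pcdhb3, Pcdhb4, Pcdhb17 and Pcdhb18 the form was GCGGGGGCG, at 1341 to 1350 bp after the first coding base. The other gene with the symbol Pcdha11 (ENSMUSG00000007440.10) had 0 exact copies in its first exon. These genes were named for their motif copies after the values were seen. Windows of 31 bp in Pcdhb and 151 bp in Pcdha genes were then set around these copies, so the exact matches in them were fixed in advance. The fewest mismatches to either motif form at any position in the window were counted, without a control window. Of the 22 Pcdhb genes, 5 held the exact motif, 6 differed from it by 1 base, 6 by 2 bases and 5 by 3 or more. For the 12 Pcdha genes that are not C-type, in the wider window of 151 bp, 4 held it, 3 differed by 1 base, 2 by 2 bases and 3 by 3 or more. How often such near matches occur by chance was not tested. The nearest peak centre was 68.1 to 120.6 kb away from the Pcdha copies and 77.9 to 272.6 kb from the Pcdhb copies.

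**Figure D4:**
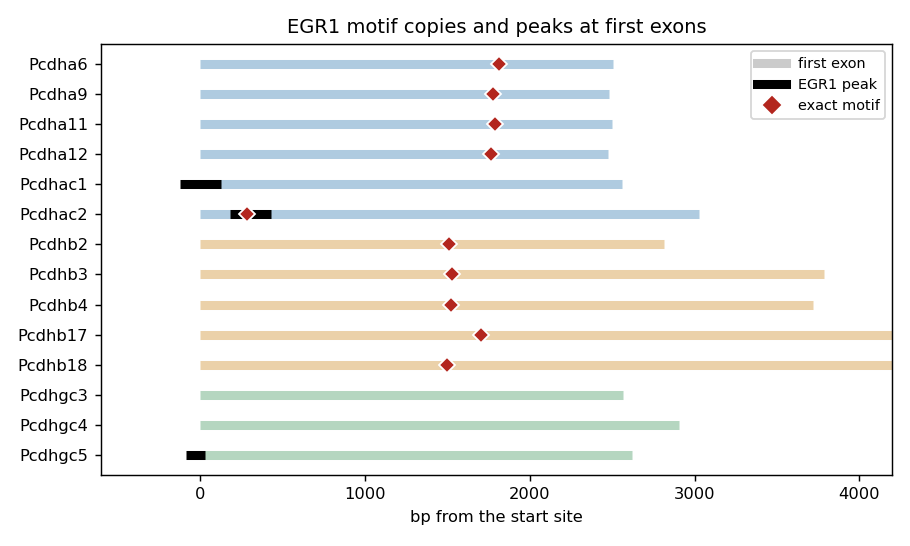
First exons (pale bars) of the C-type genes and of the genes with an exact EGR1 motif, with bp from the start site on the x axis and bars cut off at the right edge for long Pcdhb exons. Black bars are EGR1 peaks and diamonds are exact motifs; the motif lies in a peak for Pcdhac2, and 1498 to 1813 bp after the start without a peak for the other 9 genes.

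Variable exons were closer in GC content to peaks than variable promoters were, but not in CpG ratio. The first exons of the 12 Pcdha genes that are not C-type had 52.6 to 54.7% G and C, with CpG ratios of 0.613 to 0.773. Pcdhb exons were lower, at 39.1 to 49.0% and 0.286 to 0.490, and Pcdhg exons that are not C-type had 47.4 to 54.0% and 0.318 to 0.780. C-type exons had 51.3 to 57% and 0.345 to 0.721. The 6 peaks of the region had a median GC content of 57.3% and a median CpG ratio of 0.541, beside 60.4% and 0.60 for all peaks, and the ratio in the windows 5 kb to either side had a median of 0.155. Exact motifs were in 1 of the 6 peaks (beside 16.6% of all peaks), and copies with up to 1 mismatch in 5 (beside 69.8%).

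Protocadherin genes resemble one another, so reads from one may match several. Whether reads with several matches were kept is not given in the sources used here, so sequence words of 50 bp were counted instead, within 500 bp of each start site. In all 57 genes at least 74.9% of the words occurred exactly once in the genome (median 100%). With up to 2 mismatches allowed, the share of words with a single place in the region was 58.2 to 100%, with a median of 96.2%. It was 100% for all 5 C-type genes and for all 6 peaks, and it had a median of 100% for the 22 Pcdhb genes and of 72.3% for the 14 Pcdha genes. For the 52 members that are not C-type it was 58.2 to 100%, with a median of 94.7%. Around the 9 motif copies in variable exons without a peak, it was 24.9 to 71.6% (median 55.2%). Before trimming, the sequenced reads were paired and longer than these words, so the words may overstate how often reads matched several places. Whether such matches played a part in the absence of peaks around these copies, or at start sites that are not C-type, was not tested.

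**Figure D5:**
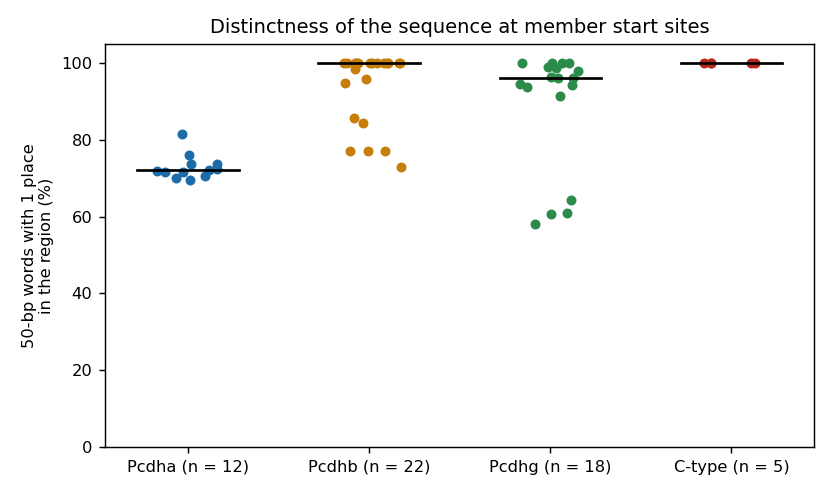
Share (%) of the 50-bp words within 500 bp of a start site that have a single place in the region when up to 2 mismatches are allowed, for each gene (points) by group, with the group median (line). All 5 C-type genes are at 100%, and the Pcdha genes that are not C-type are the group with the lowest median.

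Other protein-coding genes in the region were Diaph1, the carrier gene Slc25a2, the TFIID subunit gene Taf7 and the read-through genes Gm42416, Gm37013 and Gm37388. Diaph1 had a peak 204 bp before its start site, with an IDR of 6.45e-08, although the start itself lies outside the region. The other 5 had no peak within 2 kb. Slc25a2 and Taf7, which lie between the Pcdhb and Pcdhg clusters, were 180.7 and 175.3 kb from the nearest one.

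Among genes for proteins that are known to act on promoter choice, looping or silencing of the clusters, 6 of 12 had a peak within 2 kb (50%, Wilson interval 25.4 to 74.6%), beside 28.6% of all genes. These were the cohesin subunit genes Smc3 and Stag1, the cohesin loader gene Nipbl, and Smchd1, Setdb1 and Rest, whose products silence chromatin. The peak of Setdb1 lay 1 bp and that of Smc3 36 bp before the start site, with an IDR of 1.44e-06 and 3.63e-07. Ctcf was not among them, since its nearest peak was 12.0 kb before the start site. The interval of this list holds the 28.6% of all genes and the 38.3% of genes with a promoter GC content of 50% or more. Its 12 promoters had a median GC content of 66.2%. For signalling partners of the protocadherin cytoplasmic domain the count was 9 of 12 (75%, Wilson interval 46.8 to 91.1%), beside the same 28.6% of all genes. These were the kinase genes Fyn, Ptk2 and Ptk2b, Pik3r1 of phosphoinositide signalling, and Wasf1, Cyfip2, Nckap1, Abi1 and Abi2 of the WAVE complex, which drives actin branching. The peak of Fyn lay 63 bp before its start site with an IDR of 4.12e-06, and that of Nckap1 156 bp before it with an IDR of 2.16e-07. The 12 promoters of the signalling list had a median GC content of 56.5%. Both lists were chosen with earlier results of these data known, so neither share tests for enrichment.

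The nonclustered protocadherins are single genes spread over the genome. With 12 of them, their share with a peak could not be told apart from that of all genes. Of 12 such genes, 5 had a peak within 2 kb (41.7%, Wilson interval 19.3 to 68%), namely Pcdh7, Pcdh9, Pcdh10, Pcdh11x and Pcdh17. This interval holds the share of all protein-coding genes, 28.6%, and that of genes with a promoter GC content of 50% or more, 38.3%. Pcdh7 had 3 peaks there and the other 4 genes had 1 each. The nearest peak lay 87 bp before the start of Pcdh17 (IDR 4.09e-08), 154 bp before that of Pcdh9 (1.70e-05), 187 bp before that of Pcdh11x (0.0104), 185 bp after that of Pcdh7 (0.00840) and 1442 bp after that of Pcdh10 (0.00137). An exact motif was in the peaks of Pcdh7, Pcdh11x and Pcdh17. The GC content of the 12 promoters had a median of 62.5%, above that of any clustered protocadherin promoter except Pcdhgc3.

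Whole peak sequences are shown for Pcdh17 and Pcdh11x, because in both genes an exact motif and a peak lie just before the start site, the arrangement that no variable promoter had. Both are the GRCm38 sequence in the direction of the gene (plus strand), at chr14:84443392-84443561 for Pcdh17 and chrX:120289941-120290204 for Pcdh11x. Capitals mark the exact motif, which is read on the opposite strand as GCGGGGGCG.
Pcdh17: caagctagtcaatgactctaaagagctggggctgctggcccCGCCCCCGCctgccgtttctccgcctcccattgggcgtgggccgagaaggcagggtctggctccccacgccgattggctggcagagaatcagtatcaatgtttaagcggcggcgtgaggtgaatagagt
Pcdh11x: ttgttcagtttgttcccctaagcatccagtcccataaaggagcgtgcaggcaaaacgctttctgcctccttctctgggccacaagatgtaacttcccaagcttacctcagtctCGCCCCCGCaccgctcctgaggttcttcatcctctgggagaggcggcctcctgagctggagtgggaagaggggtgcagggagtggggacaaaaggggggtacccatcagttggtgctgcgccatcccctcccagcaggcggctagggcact
The motif of Pcdh17 lay 126 bp before the start site, in a 170-bp peak with 61.2% G and C and a CpG ratio of 0.694. That of Pcdh11x lay 201 bp before the start site, in a 264-bp peak with 59.5% and 0.343. Both peaks ended before the first start site of their gene.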

How the data were processed

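EGR1 ChIP-seq of frontal cortex was analysed from 1 deposited peak list. After trimming, reads were aligned by the authors to mm10 (Bowtie) and peaks were called with SPP. The authors then merged the peaks of 2 replicates that passed an IDR of 2%. The submitters' processing notes name Bowtie2 2.2.9 and bedtools 2.26.0. The deposited IDR is read like a q-value. Read depth is not in the list.

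How the deposited start and end are counted is not given in the sources used here. They were taken as BED positions and are printed counted from 1. Genes came from GENCODE release M21 and bases from GRCm38.p6. Start sites were those of protein-coding transcripts, and distances ran from the peak centre. A promoter for base composition was 250 bp before to 50 bp after the most upstream start site. In GENCODE the symbol Pcdha11 is carried by a pair of genes, both counted, and Pcdhgb8 is a polymorphic pseudogene and was left out. The 76 peaks on scaffolds were left out of sequence results and densities. The alternatives tried were other IDR limits, distances, start sites, flanks and overlap rules. Genes were named when they had a peak within 2 kb, lay nearest to a peak, were the 4 nearest members without one, belonged to the lists, or were neighbours. Members and lists were chosen with earlier results of these data known. Scripts used Python 3.11.15, numpy 2.4.6, pandas 2.3.3, scipy 1.17.1, pysam 0.24.0, numba 0.67.0, matplotlib 3.10.9 and samtools 1.23.1, and were tested on simulated data.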

Additional observations from a re-analysis of the deposited data

How the results depend on the processing

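Of 51 alternative values, 39 stayed within 1.5 times the reported count, or within 1 SD for the CpG ratio, and 12 did not. The 39 include values that could not move, such as the 0 peaks in constant exons under stricter IDR limits. They also include falls from 3 members with a peak to 2, in which Pcdhac1 was lost. Members with a peak within 2 kb numbered 2 to 4 under all 10 alternatives, and peaks in the region 3 to 9. With the 50% of all peaks that have the lowest IDR, the region held 3 peaks, with 1 in a variable exon, 0 in introns and 1 in spacers. With an IDR of 0.1% or less it held 4, with 1 in a variable exon and 0 in introns, since the Pcdhac1 and intron peaks drop out. Peaks at variable promoters numbered 3 within 500 bp or 1 kb on either side and 2 by overlap. Peaks with the motif numbered 5 with 1 mismatch allowed. Nonclustered protocadherins with a peak numbered 3 under the 0.1% and 50% limits, alternatives added after seeing the data. No paired analysis was possible because the list merges both replicates, and for the same reason no replicate could be left out. Depth per peak is unknown, so a site without a peak is not shown to be unbound. Which factor sets these counts was not tested.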
